A study of Mus musculus with 6 samples.

Results

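The genes described here make or remove superoxide: the NADPH oxidase genes Cyba, Cybb, Ncf1, Nox1, Nox4 and Rac2, the xanthine oxidoreductase gene Xdh, and the superoxide dismutase genes Sod2 and Sod3. They are 9 of the 34797 gene names on the array and were read by 14 of its 55681 probes, every non-control probe that carries 1 of these names. They were chosen by measured values, because Cyba and Xdh had been seen to fall in both knockouts, so the differences of the 9 genes from WT MEF are given as a description without p-values. RNA came from immortalized murine embryonic fibroblasts (MEF), which are fibroblast cultures grown from mouse embryos and adapted to lasting growth. WT MEF carried the strain label W4, TIA1 KO MEF lacked TIA1 and carried the label BALB/c, and TIAR KO MEF lacked TIAR, the product of Tial1, and carried the label C57BL/6. Each group had 2 arrays from samples labelled as independent replicates, without any treatment. With 1 strain per genotype, the effects of genotype, of strain and of the cell line cannot be told apart, and slide row cannot be told apart from the loss of TIA1 either, because the arrays of that group sat in a row of their own.

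NADPH oxidases are membrane enzymes that pass electrons from NADPH to oxygen. Cyba encodes p22phox, the membrane subunit that NOX1, NOX2 and NOX4 need for stability and activity. Cybb encodes NOX2, the catalytic subunit of the phagocyte enzyme, which the organizer p47phox (from Ncf1) and the GTPase RAC2 help to activate, whereas NOX4 is active without these cytosolic partners and releases mainly hydrogen peroxide. Xanthine oxidoreductase, encoded by Xdh, oxidizes hypoxanthine and xanthine to urate and can pass electrons to oxygen. Superoxide is turned into hydrogen peroxide by dismutases, of which SOD2 works in mitochondria and SOD3 outside the cell. TIA1 and TIAR are RNA-binding proteins that prefer uridine-rich RNA, and the study asked how their loss changes the transcriptome and physiology of MEF, reactive oxygen species included.

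Probes of 60 bases read these genes, and 2 of them were designed across an intron, so that they match spliced RNA. They are shown because they read Cyba and Nox4 at another place than the brighter probes. The probe A_51_P131800 of Cyba covers 269 bases of the genome at chr8:124950893-124951161 (mm9, minus strand), and the probe A_51_P369311 of Nox4 covers 15021 bases at chr7:94472458-94487478 (plus strand). Both are given 5′ to 3′ as in the scanner files.
Cyba: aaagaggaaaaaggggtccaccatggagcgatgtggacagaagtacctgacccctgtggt
Nox4: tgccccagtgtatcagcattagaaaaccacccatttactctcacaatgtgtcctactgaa

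Because TIA proteins prefer uridine-rich RNA, the probes were searched for a run of the letters TTTTT. It was found in 3 of the 14 probes and in 5687 (10.2%) of all 55681 probes on the array. The other strand, read as AAAAA, matched in 4 of the 14 probes and in 5940 of all probes, and either run was present in 7 of the 14 and in 19.9% of all. The windows of 30 bases around the 3 runs are shown with the run in capitals, for Xdh within chr17:74233511-74233570 (minus strand), Nox4 within chr7:94547113-94547172 (plus strand) and Cybb within chrX:9013216-9013275 (minus strand). A match describes the letters of a probe and not a binding site.
Xdh: gattctgagtccaTTTTTgatcacatattt
Nox4: acagcttcatttcTTTTTagattctatggt
Cybb: ttccttgtctttaTTTTTcttgcagacaat

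Levels are given as log2 normalized intensity, and a difference of 1 on this scale is 2-fold. Whether a probe was well above background follows the scanner software's own rating, met by 23531 and 26254 probes in WT MEF, 16000 and 19920 without TIA1 and 24754 and 25985 without TIAR. Local background had a median of 52.0 and 47.0 intensity units for WT MEF, 89.5 and 58.0 without TIA1 and 46.0 and 42.0 without TIAR. The TIA1 KO arrays thus had fewer probes above background and more background around the spots. The part of this in the values of TIA1 KO MEF was not tested. The SD between arrays of one group was 0.273 for WT MEF, 0.442 without TIA1 and 0.285 without TIAR.

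The labels were first set against the genes knocked out. The brightest Tia1 probe read 10.72 and 8.54 in WT MEF, 7.87 and 8.44 without TIA1 and 9.56 and 9.58 without TIAR, and its difference between TIA1 KO and WT MEF of -1.47 ± 0.79 (SE) did not pass the test (limma, adjusted p = 0.288). The other Tia1 probes differed in direction there, at -1.62 ± 0.42 (limma, adjusted p = 0.116) and, near background, 0.87 ± 0.28 (limma, adjusted p = 0.149). A Tial1 probe measured on all 6 arrays read 11.71 and 11.09 in WT MEF, 11.85 and 11.49 without TIA1 and 10.00 and 9.65 without TIAR, a fall of -1.58 ± 0.26 in TIAR KO MEF (limma, adjusted p = 0.0254) that did not pass without WT replicate 1 (-1.27) or without TIAR KO replicate 1 or 2 (-1.76 and -1.40), nor with processed intensities (-1.62). The brightest Tial1 probe, whose spot on WT replicate 1 was left out as an outlier, read 13.22 on WT replicate 2, 14.07 and 13.69 without TIA1 and 9.57 and 11.60 without TIAR, a difference of -2.63 ± 0.87 for TIAR KO MEF (limma, adjusted p = 0.200). Where these probes lie relative to the disrupted parts of the genes is not given in the sources used here. By western blots and RT-PCR, the study reports no TIA1 in TIA1 KO MEF and no TIAR in TIAR KO MEF.

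Among the brightest probes of the 9 genes, the largest measured difference between TIA1 KO and WT MEF was that of Cyba. The TIA1 KO arrays were not all well above background for Cyba, Xdh or Sod3, so their falls there cannot be ranked. Cyba was lower in TIAR KO MEF too, by less. Its brightest probe, A_55_P1979341 at chr8:124948726-124948785 (minus strand), read 15.55 and 15.24 in WT MEF, 8.27 and 8.67 without TIA1 and 14.13 and 13.62 without TIAR. The TIA1 KO values were the lowest and near background, since 1 of these 2 arrays was well above it, and no groups overlapped. The raw mean intensities behind them were 55310 and 44426 in WT MEF, 434 and 378 without TIA1 and 17546 and 10252 without TIAR, over local backgrounds of 39.5 to 52.0. The median raw intensity of a whole array was 152 and 140 in WT MEF, 458 and 218 without TIA1 and 136 and 119 without TIAR. Cyba had a measured difference of -6.93 ± 0.23 (122-fold lower) without TIA1, where 1 array was not well above background. Without TIAR it was -1.52 ± 0.23 (2.86-fold lower). The intron-crossing probe printed above read 12.70 and 12.97 in WT MEF, 7.29 and 7.76 without TIA1 and 11.33 and 11.25 without TIAR, with neither TIA1 KO array well above background. By this probe Cyba was at least 30.7-fold lower in TIA1 KO and 2.92-fold lower in TIAR KO MEF. For such a lower limit, each dim array was given its lowest signal with that rating, unless the probe itself read higher. On TIA1 KO replicate 2 that lowest signal was 5.78, so the probe's own dim reading was used there. These limits come from group means and leave out the spread between arrays, so they are approximate.

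**Figure D1:**
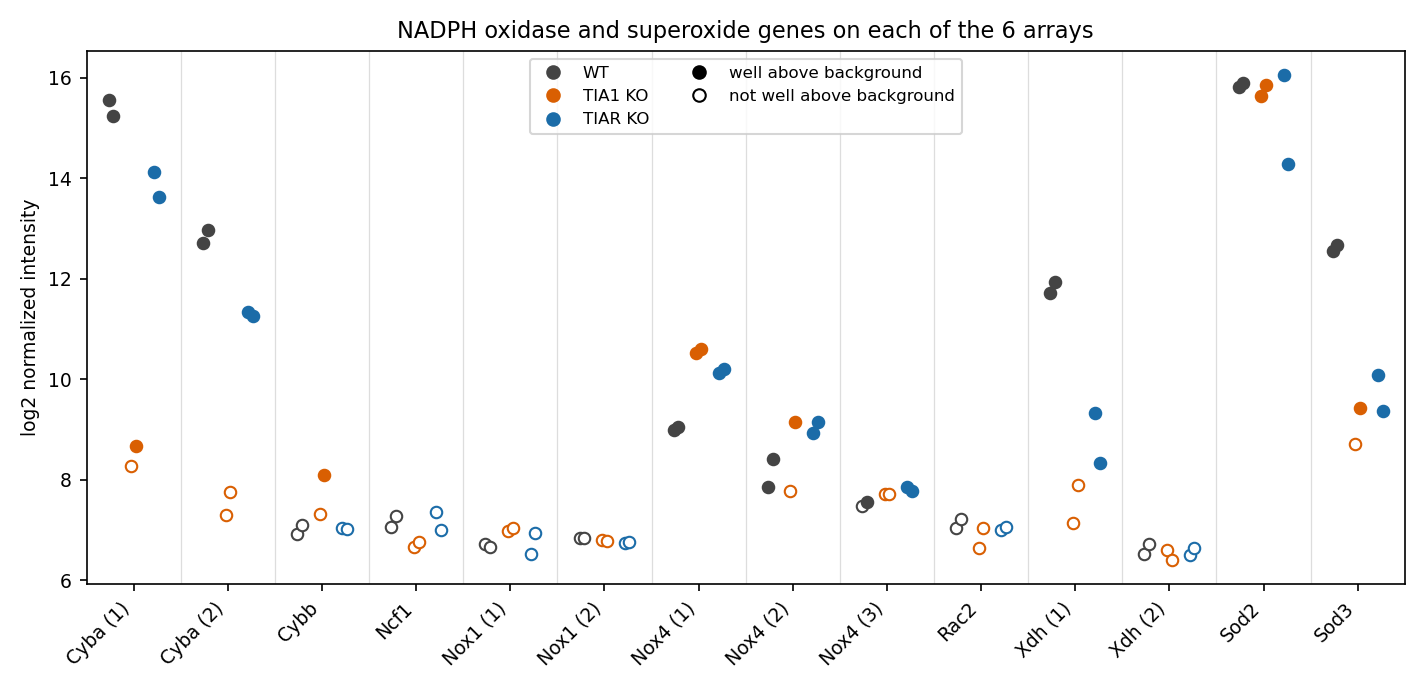
Log2 normalized intensity of each of the 14 probes (horizontal axis, numbered where a gene has several, with the brightest probe first for Cyba, Nox4, Nox1 and Xdh) on the 6 arrays. Filled points were well above background and open points were not. Cyba, the first Xdh probe and Sod3 were highest on both WT arrays, the first Nox4 probe was lowest there, and all Ncf1, Nox1 and Rac2 points are open.

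Nox4 was the only catalytic subunit of the list that was well above background in all 3 groups, and it was higher in both knockouts. Its brightest probe, A_55_P1972040 at chr7:94547025-94547084, read 8.98 and 9.04 in WT MEF, 10.52 and 10.60 without TIA1 and 10.13 and 10.21 without TIAR. No groups overlapped, and the differences from WT were 1.55 ± 0.15 (2.93-fold) without TIA1 and 1.16 ± 0.14 (2.23-fold) without TIAR. Local background at this spot was 51.0 and 42.0 in WT MEF, 188 and 99.0 without TIA1 and 46.0 and 48.0 without TIAR, and its part in the difference was not tested. In the main processing the size depended on the probe. The probe with the TTTTT run read 7.86 and 8.42 in WT MEF, 7.77 and 9.14 without TIA1 and 8.92 and 9.14 without TIAR, with differences of 0.31 ± 0.53 and 0.89 ± 0.23. The intron-crossing Nox4 probe read 7.48 and 7.55 in WT MEF, 7.72 and 7.72 without TIA1 and 7.85 and 7.78 without TIAR, differences of 0.21 and 0.30 close to background. When arrays were only brought to one median, without loess or quantiles, the brightest probe's difference was 0.41 without TIA1 and 0.97 without TIAR, both under 2-fold. With processed intensities these Nox4 probes, in the order given, differed by 1.18, 1.26 and 1.24 without TIAR, where the median over all probes was -0.04. Without TIA1 they differed by 1.41, 1.49 and 2.23, beside a median over all probes of 1.98.

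Apart from Cyba, the genes of the phagocyte enzyme listed here gave little signal in these fibroblasts. Cybb read 6.92 and 7.10 in WT MEF, 7.31 and 8.09 without TIA1 and 7.03 and 7.01 without TIAR, and was well above background on TIA1 KO replicate 2 alone. Ncf1 (chr5:134696380-134696439) read 7.05 and 7.28 in WT MEF, 6.67 and 6.76 without TIA1 and 7.35 and 6.99 without TIAR, and no array was well above background. Rac2 (chr15:78391452-78391511) read 7.04 and 7.21 in WT MEF, 6.64 and 7.03 without TIA1 and 6.99 and 7.06 without TIAR, again not well above background on any array. The 2 probes of Nox1, the catalytic subunit best known from colon epithelium, were not well above background on any array either. For Ncf1, Rac2 and Nox1, therefore, these arrays show no difference that can be read as one of RNA level.

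Xdh and Sod3 were both lower in the 2 knockouts. The brightest Xdh probe, whose TTTTT window is printed above, read 11.72 and 11.93 in WT MEF, 7.13 and 7.89 without TIA1 and 9.32 and 8.33 without TIAR. Both TIA1 KO arrays were not well above background, and no groups overlapped. The differences from WT were -4.32 ± 0.31 (at least 14.6-fold lower) without TIA1 and -3.00 ± 0.34 (8.02-fold lower) without TIAR. The other Xdh probe, at chr17:74283658-74283717, read between 6.40 and 6.73 on all 6 arrays and was not well above background on any, so it did not show the difference.

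Sod3 (chr5:52760685-52760744) read 12.55 and 12.66 in WT MEF, 8.70 and 9.42 without TIA1 and 10.09 and 9.37 without TIAR. Both WT arrays were above all others, while the 2 knockout groups overlapped, and TIA1 KO replicate 1 was not well above background. The measured differences were -3.54 ± 0.29 (11.7-fold lower) without TIA1 and -2.88 ± 0.26 (7.34-fold lower) without TIAR. The mitochondrial dismutase gene Sod2 (chr17:13208074-13208133) had another pattern. It read 15.82 and 15.89 in WT MEF, 15.63 and 15.85 without TIA1 and 16.05 and 14.27 without TIAR. The TIAR KO arrays lay on both sides of WT, so the differences of -0.11 ± 0.17 and -0.70 ± 0.56 were within the spread between arrays. Over the alternative ways of processing, the Sod2 difference ran from -1.66 to 0.00 without TIA1 and from -1.59 to 0.19 without TIAR.

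**Figure D2:**
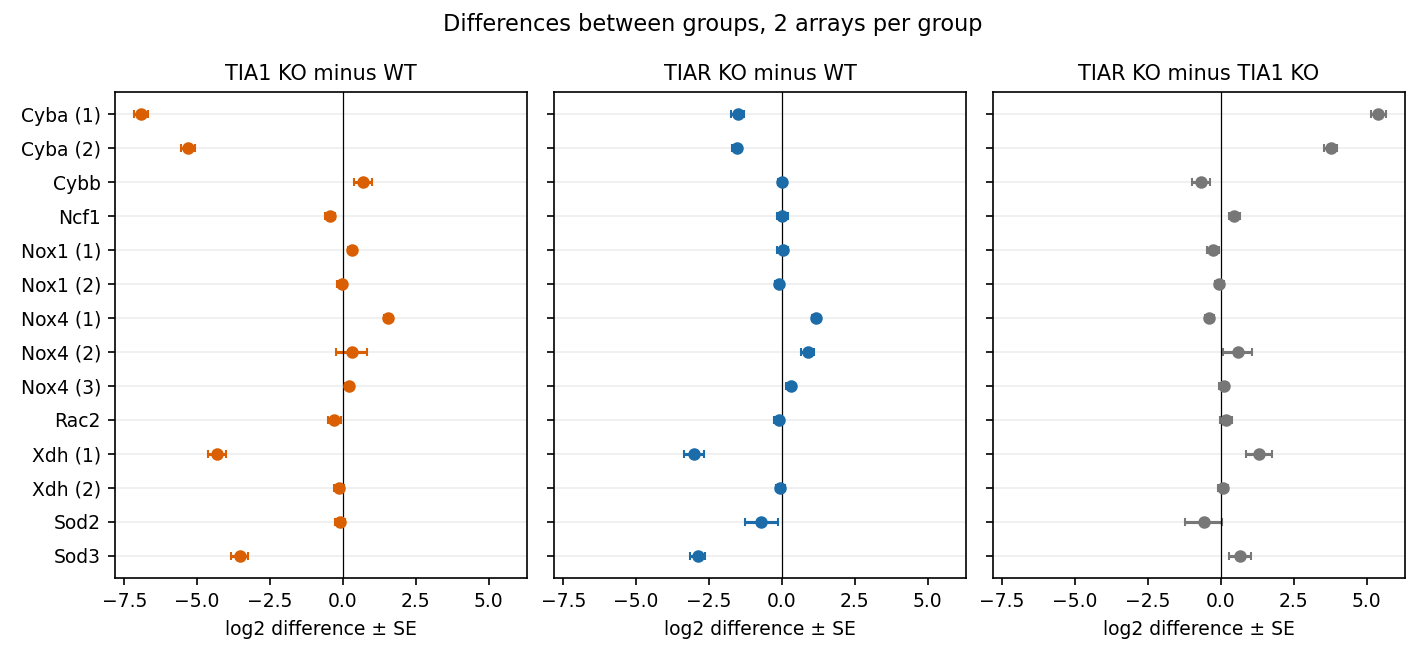
Log2 differences (horizontal axis) with their standard errors for each of the 14 probes (vertical axis) in TIA1 KO minus WT, TIAR KO minus WT, and TIAR KO minus TIA1 KO MEF, each from 2 arrays per group. Cyba, Xdh and Sod3 lie left of 0 in both comparisons with WT, and Cyba lies farthest from 0 between the knockouts, at 5.41 and 3.77.

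A gene was called on its brightest probe, at a change above 2-fold and an adjusted p under 0.05 in the limma fit over all probes. By this rule 3 of the 9 genes (Cyba, Xdh and Sod3) were lower and 1 (Nox4) was higher in TIA1 KO MEF, where 1.63% of all genes were lower and 2.88% higher. The same 3 were lower and the same 1 higher in TIAR KO MEF, where 2.82% of all genes were lower and 4.36% higher. No probe on the array passed in TIA1 KO against WT MEF without WT replicate 1 or 2 or with processed intensities (limma, 7202, 7415 and 27765 probes at an unadjusted p under 0.05), so these 4 calls and every other call of that comparison named here fell to 0 there. These counts follow from how the genes were chosen, and both comparisons used the same WT arrays. The median difference of the 9 genes was -0.29 without TIA1 and -0.11 without TIAR, against -0.07 and -0.01 over all genes. Of the 9 genes, 5 were well above background throughout 1 group or more (Cyba, Nox4, Xdh, Sod2 and Sod3).

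The knockouts were also set against each other. The falls that led to the choice of the genes were seen on these same knockout arrays, so these differences too are given as a description without p-values. Cyba was higher in TIAR KO than in TIA1 KO MEF by a measured 5.41 ± 0.26 (42.5-fold) at the brightest probe, where TIA1 KO replicate 1 was not well above background. At the intron-crossing probe it was higher at least 10.5-fold, with a measured difference of 3.77 ± 0.22. Both TIAR KO arrays were above both TIA1 KO arrays at each probe. Without TIAR KO replicate 1 or 2 the difference at the brightest probe was 5.16 or 5.66.

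The other genes had smaller measured differences between the knockouts. Xdh was higher by a measured 1.32 ± 0.45 in TIAR KO than in TIA1 KO MEF, where neither array was well above background. Its lower limit, reckoned as for Cyba from group means, was 1.82-fold. With other processing or with arrays left out, the measured difference ran from 0.82 to 1.94, so 1.82-fold is no firm minimum. Both TIAR KO values lay above both TIA1 KO values. Sod3, for which TIA1 KO replicate 1 was not well above background, differed by 0.67 ± 0.38, Nox4 by -0.39 ± 0.15 and Sod2 by -0.59 ± 0.63. Cybb had a measured difference of -0.68 ± 0.30, with neither TIAR KO array well above background. The call rule used above is applied here as a description only. By it, 1 of the 9 genes (Cyba) was higher and 0 were lower in TIAR KO than in TIA1 KO MEF. Over all genes, 2.06% were higher and 2.12% lower. At an unadjusted p under 0.05 by limma 2 were higher and 0 lower, against 14.8% and 9.89% of all genes. Those 2 were Cyba and Xdh, whose falls on these arrays led to the choice of the genes. Such counts therefore describe the list and are no test of it. No probe on the whole array was called in this comparison without either TIAR KO array or with the replicate block.

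The rest of the oxidase machinery was read from 19 further genes, subunits, maturation factors and regulators. For the counts that follow, an unadjusted p under 0.05 by limma was reached by 11.9% of all genes as higher and 17.3% as lower in TIA1 KO MEF, and by 11.4% and 11.7% in TIAR KO MEF. In TIA1 KO MEF 2 were called higher and 0 lower (5 and 2 by limma at an unadjusted p under 0.05), and in TIAR KO MEF 3 were higher and 1 lower (4 and 2). The list's median difference was 0.09 and 0.12. The genes called higher in both knockouts, Arhgdib and Arhgdig, encode GDP-dissociation inhibitors of small GTPases related to RAC. Another such gene of the list, Arhgdia, read 17.25 to 17.97 on all 6 arrays and was named after its values were seen. It was not called in TIA1 KO (0.14 ± 0.29; limma, adjusted p = 0.769) or TIAR KO MEF (0.48 ± 0.20; limma, adjusted p = 0.260). Arhgdib read 8.32 and 8.51 in WT MEF, 14.60 and 14.72 without TIA1 and 15.00 and 15.04 without TIAR. Arhgdib was higher by 6.25 ± 0.17 (75.9-fold; limma, adjusted p = 0.00362) and 6.61 ± 0.15 (97.7-fold; limma, adjusted p = 0.000176), with no overlap between WT and either knockout.

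Arhgdig read 7.99 and 8.17 in WT MEF, 9.56 and 9.59 without TIA1 and 9.68 and 9.77 without TIAR. It was higher by 1.49 ± 0.16 (limma, adjusted p = 0.0286) and 1.65 ± 0.15 (limma, adjusted p = 0.00377). Sh3pxd2b, which encodes an adaptor related to p47phox, read 10.88 and 10.48 in WT and 11.67 and 11.95 in TIAR KO MEF and was called there (1.13 ± 0.20; limma, adjusted p = 0.0341), though not without WT replicate 2 (0.93) or TIAR KO replicate 1 (1.28) or 2 (0.99). With the replicate block, Arhgdig in TIA1 KO and Sh3pxd2b in TIAR KO MEF did not pass. Arhgdig did not pass there either with the deposited log2 values (1.15), without loess (1.18) or with median scaling (0.67), nor did Sh3pxd2b with processed intensities (1.10) or median scaling (0.75). The lower call in TIAR KO MEF was Lrrc33, at 7.71 and 7.71 in WT and 6.58 and 6.69 in TIAR KO MEF. It was well above background on 1 of these 4 arrays and was named after its values were seen. Its measured difference was -1.07 ± 0.14, and its lower limit was 1.71-fold, under the 2-fold threshold. Rac1, the RAC gene most cells use, read 15.33 to 15.83 on all 6 arrays and was not called.

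Another list held 14 further genes that remove superoxide or peroxide. TIA1 KO MEF had 0 higher and 1 lower (2 and 3 by limma at an unadjusted p under 0.05), TIAR KO MEF had 1 higher and 0 lower (3 and 2), and the median differences were -0.21 and -0.02. Srxn1, which encodes the sulfiredoxin that repairs over-oxidized peroxiredoxins, read 14.29 and 14.28 in WT and 13.01 and 13.01 in TIA1 KO MEF, a fall of -1.27 ± 0.15 (limma, adjusted p = 0.0334). Prdx2, a cytosolic peroxiredoxin gene, read 15.32 and 15.37 in WT and 16.44 and 16.48 in TIAR KO MEF, a rise of 1.11 ± 0.14 (limma, adjusted p = 0.0109) that did not pass without WT replicate 1 (1.09) or TIAR KO replicate 1 (1.14) or 2 (1.09), nor with processed intensities (0.86) or median scaling (0.65). The fall of Srxn1 did not pass with the replicate block or an offset of 16. The cytosolic dismutase gene Sod1 read 16.58 and 17.09 in WT MEF, 16.11 and 16.27 without TIA1 and 17.35 and 17.11 without TIAR and was not called in any comparison, nor was the catalase gene Cat.

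Xanthine oxidoreductase needs a molybdenum cofactor, and 14 genes of purine breakdown and of that cofactor were read beside it. TIA1 KO MEF had 0 calls in either direction (limma, 3 higher and 1 lower at an unadjusted p under 0.05), whereas TIAR KO MEF had 2 higher and 1 lower (3 and 4), with medians of 0.18 and 0.04. Gphn encodes gephyrin, which inserts molybdenum into the cofactor. It read 10.05 and 10.22 in WT MEF, 10.45 and 10.32 without TIA1 and 6.54 and 6.70 without TIAR, where neither array was well above background. The fall in TIAR KO MEF was at least 9.22-fold (limma, adjusted p = 0.000444). Between the knockouts it was -3.76 ± 0.16, at least 10.9-fold (limma, adjusted p = 0.00699), the 1 call of the 55 other genes in that comparison, and it was lost without either TIAR KO array and with the replicate block.

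Mocs1, which acts in the first step of cofactor synthesis, read 11.54 and 11.29 in WT MEF, 11.88 and 11.72 without TIA1 and 12.71 and 13.32 without TIAR. It was higher by 1.60 ± 0.24 in TIAR KO MEF (limma, adjusted p = 0.0205), but did not pass without WT replicate 1 (1.72) or 2 (1.47) or TIAR KO replicate 2 (1.29), nor with processed intensities (1.59). Aox1, an aldehyde oxidase gene of the same enzyme family as Xdh, read 7.76 and 7.65 in WT MEF, 9.84 and 7.60 without TIA1 and 11.21 and 11.28 without TIAR. It was higher by 3.54 ± 0.14 (11.6-fold) in TIAR KO MEF (limma, adjusted p = 0.000367), the opposite direction to Xdh there, and the TIA1 KO arrays, neither of them well above background, were too far apart to call.

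The list of 8 genes with Nfe2l2, which encodes NRF2, the transcription factor of the response to oxidants, Keap1, which encodes its inhibitor, and 6 of its best-known targets had 0 calls in every comparison. By limma at an unadjusted p under 0.05, 4 were lower and 0 higher in TIA1 KO and 2 lower and 0 higher in TIAR KO MEF, where 17.3% and 11.7% of all genes were lower at that p. All 8 had differences below 0 in TIA1 KO (median -0.83, against -0.07 over all genes) and 7 of 8 in TIAR KO MEF (median -0.40, against -0.01). All 8 were well above background throughout 1 group or more. Over probes well above background alone, the median difference was -0.26 without TIA1 and -0.05 without TIAR. Keap1 is among the genes below 0 in both knockouts, with -0.38 ± 0.20 without TIA1 and -0.94 ± 0.19 without TIAR (limma, adjusted p = 0.285 and 0.0488), below the 2-fold threshold. Gclm, a subunit gene of the enzyme that starts glutathione synthesis, read 11.55 and 10.87 in WT MEF, 9.69 and 9.64 without TIA1 and 10.81 and 10.53 without TIAR. Its difference of -1.54 ± 0.27 in TIA1 KO MEF did not pass (limma, adjusted p = 0.0731). The heme oxygenase gene Hmox1 read 14.50 and 14.61 in WT and 13.78 and 13.70 in TIA1 KO MEF, a difference of -0.82 ± 0.15 (limma, adjusted p = 0.0792). Keap1, Gclm and Hmox1 were named after their values were seen, as was the leukocyte marker Cd68.

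**Figure D3:**
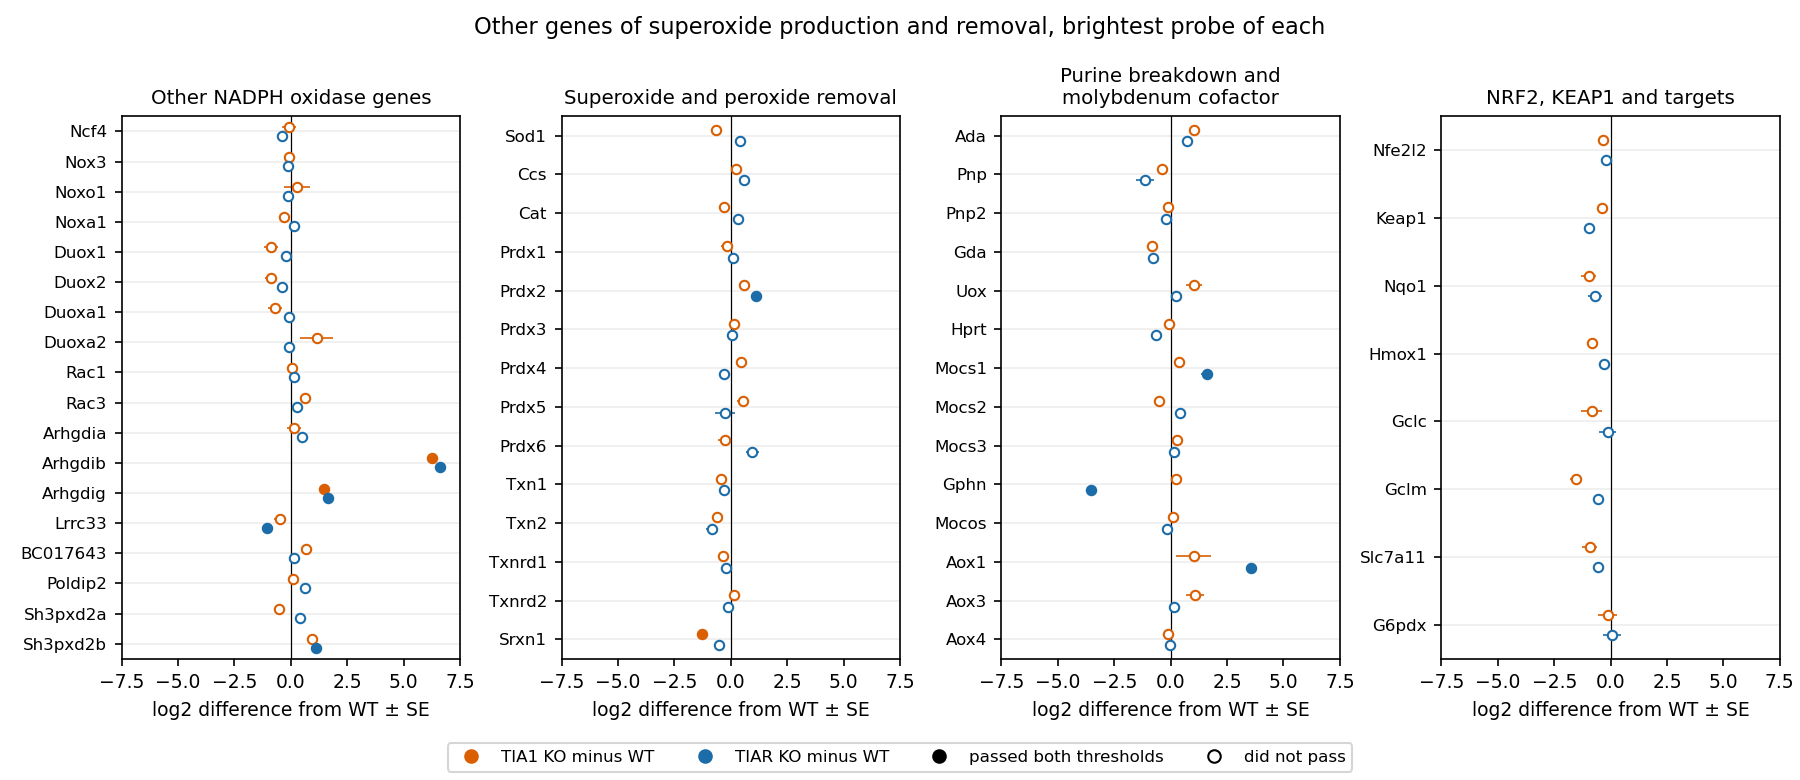
Log2 difference from WT with its standard error (horizontal axes) for the brightest probe of the other genes reported here in 4 lists, in TIA1 KO and TIAR KO MEF with 2 arrays per group. Filled points passed both thresholds. Arhgdib stands far right in both knockouts at 6.25 and 6.61, and Gphn and Aox1 stand apart in TIAR KO MEF at -3.51 and 3.54, while no gene of the NRF2 list has a filled point.

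Since the phagocyte oxidase is best known from leukocytes, markers of that and other cell types were read on the same arrays. Of 15 leukocyte markers, 7, 7, 4, 7, 7 and 7 were well above background on WT 1, WT 2, TIA1 KO 1, TIA1 KO 2, TIAR KO 1 and TIAR KO 2. Ptprc, Emr1, Lyz1, Lyz2 and Sfpi1 were not well above background on any array, whereas Cd68, Cd14 and Itgam were on all 6 and Csf1r, Cd3e and Fcer1g on 5 of 6. The summed normalized intensity of the list was 12818 and 12171 in WT MEF, 23241 and 20614 without TIA1 and 11351 and 11735 without TIAR, with Cd14 the brightest gene in WT and Itgam in both knockouts. Itgam (11.94 and 11.47 in WT, 13.65 and 13.40 in TIA1 KO) and Tyrobp, which was well above background on 1 TIA1 KO array, were called higher in TIA1 KO MEF, where Cyba was lowest. Cd14, at 12.10 and 12.45 in WT and 10.91 and 11.00 in TIAR KO MEF, was called lower in TIAR KO MEF. Set directly against TIA1 KO MEF, TIAR KO MEF had 1 leukocyte marker called higher (Cd68) and 3 lower, which were Itgam (-1.66; limma, adjusted p = 0.0287), Cd14 (-1.59; limma, adjusted p = 0.0235) and Tyrobp (-1.61, at least 2.49-fold; limma, adjusted p = 0.0354). Cd68 read 10.89 and 10.15 in WT MEF, 10.18 and 10.17 without TIA1 and 11.66 and 11.64 without TIAR, and was called higher in TIAR KO than in TIA1 KO MEF (1.48 ± 0.15; limma, adjusted p = 0.0264) but not against WT (1.13 ± 0.27; limma, adjusted p = 0.0737). Itgam did not pass without TIA1 KO replicate 1 (1.69), with the replicate block, with the deposited log2 values, without loess or with median scaling (0.25), and Cd14 did not pass without TIAR KO replicate 1 (-1.28) or 2 (-1.37). These shifts in markers lie beside those of Cyba and their part in it was not tested, and in RNA of whole cultures fewer cells of a type and less RNA per cell cannot be told apart.

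The fibroblast label itself held for collagen I, vimentin and fibronectin, but several defining markers were weak in WT MEF. Of 10 fibroblast markers, 7 and 9 reached that rating in WT MEF, 8 and 9 without TIA1 and 10 and 10 without TIAR. Their summed normalized intensity was 533492 and 567118 in WT MEF, 1314782 and 1289679 without TIA1 and 1392297 and 1418731 without TIAR, the brightest being S100a4 in WT and Col1a2 or S100a4 in the knockouts. Pdgfra read 6.37 and 6.40 in WT and was not well above background there, and Thy1 and Dcn were well above it on WT replicate 2 alone. In TIA1 KO MEF 7 were called higher and in TIAR KO MEF 8, with 0 lower in each (limma, 0 lower at an unadjusted p under 0.05 too), and median differences of 2.59 and 3.11.

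Col3a1 read 9.52 and 9.08 in WT MEF, 15.59 and 15.65 without TIA1 and 15.16 and 16.65 without TIAR. Thy1 read 6.63 and 6.98 in WT MEF, 7.11 and 7.48 without TIA1 and 14.84 and 14.74 without TIAR. Dcn, the gene of the matrix proteoglycan decorin, read 6.57 and 6.62 in WT MEF, 9.24 and 9.29 without TIA1 and 15.67 and 15.82 without TIAR. The groups thus differed in fibroblast markers as well as in Cyba, Xdh, Sod3 and Nox4, in a design where each group is also a strain, and the part of this in the oxidase genes was not tested. Of 6 epithelial markers, 1 was called higher in TIA1 KO (Krt8) and 3 in TIAR KO MEF (Krt8, Krt18 and Cdh1), with summed intensities of 1176 and 1080 in WT MEF, 1297 and 1615 without TIA1 and 2543 and 2508 without TIAR and Krt8 or Krt18 the brightest. Krt8 did not pass in TIAR KO MEF without TIAR KO replicate 2 (1.16), nor in TIA1 KO MEF with the replicate block, the deposited log2 values (0.92), no loess (0.91), median scaling (0.41), an offset of 16 (1.37) or an intensity trend. Of 5 endothelial markers 0 were called (limma, 1 higher in each knockout at an unadjusted p under 0.05), with sums of 2933 to 3873 and Kdr the brightest on every array.

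The profiles of Cyba and Xdh over the 6 arrays were then set against those of 12355 genes, by the root mean square difference between log2 values centred on each gene's own mean. The 5 genes closest to Cyba were BC023969 (0.54), Prim2 (0.93), Cda (0.94), Hoxd8 (1.12) and Siglecg (1.17), all of them high in WT, near background in TIA1 KO and intermediate in TIAR KO MEF. BC023969 read 14.67 and 14.52 in WT MEF, 7.63 and 7.14 without TIA1 and 13.59 and 13.93 without TIAR. The 5 closest to Xdh were Ifi27l2a (0.31), Sod3 (0.35), Rab3b (0.41), Gch1 (0.52) and S100a1 (0.55). Sod3, another gene of the present list, was thus second to Xdh by this measure, over 6 points that fall into 3 groups, and the likeness is given without a test.

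**Figure D4:**
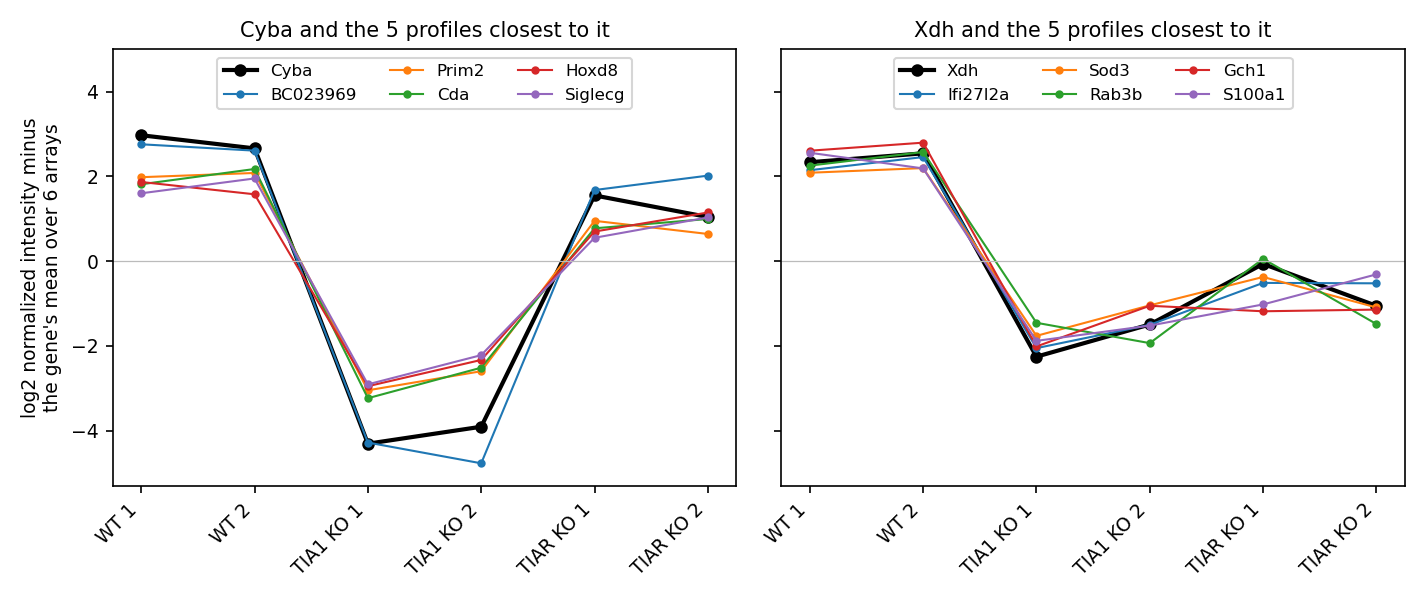
Log2 normalized intensity minus the gene's mean over the 6 arrays (vertical axis) on each array (horizontal axis) for Cyba and Xdh in black and the 5 genes closest to each in colour. The Cyba profiles drop in TIA1 KO MEF and come partly back in TIAR KO MEF, whereas the Xdh profiles are low in both.

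The genes next to Cyba on chromosome 8 were read too. Within 50 kb of the brightest Cyba probe, 6 other genes had a probe (Mvd, Il17c, Snai3, Zc3h18, 9330133O14Rik and Rnf166), and 0 of them were called in either knockout (limma, 2 lower in TIA1 KO and 2 lower in TIAR KO MEF at an unadjusted p under 0.05). In TIA1 KO MEF all 6 had differences below 0, from -0.61 to -0.18, beside -6.93 for Cyba. Il17c was not well above background on any array and Snai3 was on 1 array only. Distances are along the Cyba strand, negative upstream. Mvd, at -9.02 kb, differed by -0.29 ± 0.22 without TIA1 and 0.15 ± 0.31 without TIAR. Zc3h18, at 7.53 kb, had differences of -0.18 ± 0.16 and -1.07 ± 0.40 (limma, adjusted p = 0.493 and 0.220), and 9330133O14Rik, at -21.6 kb, had -0.34 ± 0.24 and -0.70 ± 0.19 (limma, adjusted p = 0.378 and 0.0994). The 1 neighbour of Sod3, Ccdc149, was not called (0.48 ± 0.25 and 0.32 ± 0.23), and no other named gene had a probe within 50 kb of the brightest Xdh or Nox4 probe. These neighbours were looked up after the values of the 9 genes were known.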

How the data were processed

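The authors hybridized Cy3-labelled total RNA to 1-colour mouse arrays of 60-base probes and deposited 1 scanner file per array (Feature Extraction 10.7.3.1), with raw spot intensity, local background, flags and mm9 probe positions, and with no scaling across arrays. Normalized log2 values were also deposited, described in the methods and labels as made with limma. Mean intensities and median local backgrounds were corrected by normexp (offset 50), taken to log2, adjusted by 1 pass of cyclic loess and quantile normalized over the 6 arrays. The methods name normexp, loess for each array and quantiles, and also a global scaling between arrays that was not applied here, and the kind of loess is not given in the sources used here. Control and outlier-marked spots were left out, and spots of a probe were averaged. These values correlated with the authors' log2 values at r of 0.997 to 0.999. A gene was read from its brightest probe, the highest in mean over the 6 arrays, and no probe was dropped for low signal. Each comparison was fitted with limma on its own 4 arrays and adjusted over all 55681 probes (Benjamini-Hochberg). Fits were tested on simulated data. The comparison of the knockouts was planned as a test for the members, and is given for them without p-values because their choice used the same arrays.

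The members and lists were chosen with earlier results of these data known. Genes named were the 9 members, Tia1, Tial1, up to 3 called genes per list and direction that were well above background in the higher group, called markers, and the 5 closest profiles, and Rac1, Sod1 and Cat, named after their values were seen as the best-known members of their lists. The text names other exceptions, and some list genes are counted but not reported here by name. Samples with the same replicate number did not deviate together (correlations of 0.0781, 0.0303 and -0.0723), so no pairing was used. Alternatives were the deposited log2 values, processed intensities scaled to the 75th percentile, an offset of 16, no loess, scaling to a common median, a filter on dim probes, kept outlier spots, all 3 groups together, an intensity trend, a replicate block, any probe of a gene, and leaving out each array. A loess in which control spots had weight 0 was chosen after seeing the data. The 2 arrays per group limit the precision, and p-values measure the spread between these cultures. R 4.3.3, limma 3.58.1, data.table (version 1.17.8), Python and matplotlib were used.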

Additional observations from a re-analysis of the deposited data

Results flagged for a closer look

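For 3 values the knockouts differed when set directly against each other. Cyba was higher in TIAR KO MEF by 5.41 at the brightest probe, and by 3.77 (at least 10.5-fold, since neither TIA1 KO array was well above background) at the intron-crossing probe. Cyba was chosen for its fall on these arrays, so its values carry no test. Gphn had a measured log2 difference of -3.76 and was lower at least 10.9-fold without TIAR, where neither array was well above background (limma, adjusted p = 0.00699). No probe passed in this comparison without either TIAR KO array or with the replicate block. All 3 rest on 2 arrays per group, with strain, genotype and slide row not separable.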

How the results depend on the processing

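Among the 9 genes, at their brightest probes, Cyba, Xdh and Sod3 stayed below and Nox4 above WT in both knockouts under all 15 alternatives. The replicate block, the intensity trend, the fit of all 3 groups and the filter cannot change these differences. With processed intensities, Nox4 in TIA1 KO MEF (1.41) lay below the median difference over all probes (1.98). Cyba in TIA1 KO MEF (-6.93) became -7.41 with the deposited log2 table and with processed intensities, -7.44 without loess and -8.17 with scaling to a common median, and -7.12 to -6.73 when arrays were left out. In TIAR KO MEF (-1.52) it became -1.93 with median scaling. Xdh in TIA1 KO MEF (-4.32) became -5.10 with processed intensities and -5.26 with median scaling. Over the alternatives in TIA1 KO MEF, Sod3 (-3.54) ran from -4.67 to -3.18 and Sod2 (-0.11) from -1.66 to 0.00. Cd14 in TIA1 KO MEF turned to -1.27 with median scaling. The median difference over all probes, -0.09 in TIA1 KO against WT and 0.05 between the knockouts, was -0.67 and 0.63 under that scaling and 1.98 and -1.85 with processed intensities.

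Of the 9 genes, 1 was higher in TIAR KO than in TIA1 KO MEF, 3 with median scaling, 0 with the replicate block and 0 to 1 with arrays left out (0 without either TIAR KO array). The number lower was 0, 1 with processed intensities and 0 to 1 with arrays left out. Of the 55 other genes, 2 were higher in TIA1 KO MEF, and 1 with the deposited table, without loess, with median scaling or with the replicate block, 0 with processed intensities and 0 to 7 with arrays left out. The 1 lower there became 0 with processed intensities, an offset of 16 or the replicate block, 25 with median scaling, 2 with all 3 groups, an intensity trend or the filter, and 0 to 6 with arrays left out. In TIAR KO MEF the 6 higher became 3 with processed intensities and 3 to 5 with arrays left out, and the 2 lower became 4 with median scaling, and 1 with all 3 groups, the filter or any array left out. Between the knockouts the 0 higher became 18 with median scaling, 1 with all 3 groups or any probe, 2 with a trend, 3 with the filter and 0 to 6 with arrays left out, and the 1 lower became 2 with processed intensities, 0 with the replicate block and 0 to 5 with arrays left out. Of these, the 7, both 6s and the 5 from leaving arrays out came without TIA1 KO replicate 2, and the falls to 0 without a WT or a TIAR KO array.

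Over all probes, the 1969 calls in TIA1 KO against WT MEF became 1309 with the deposited table, 0 with processed intensities (27765 at an unadjusted p under 0.05 by limma), 15801 with median scaling (11.9% higher), 3986 with all 3 groups, 671 with the replicate block and 0 to 10735 with arrays left out, where each 0 came without a WT array (7202 and 7415 at an unadjusted p under 0.05). The 3206 calls in TIAR KO against WT MEF stayed within 1.5 times, 34.4% of them higher with median scaling. The 1866 between the knockouts became 8307 with median scaling (87.2% higher), 3183 with all 3 groups, 0 with the replicate block (10675 at an unadjusted p under 0.05), 2910 with the filter and 0 to 10086 with arrays left out, and 8.28% were higher with processed intensities. The replicate numbers are shared by label only, and the cause of these shifts was not tested. Where an array was left out, the lone array was assumed to vary like the other group.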
